A study of Drosophila melanogaster with 9 samples.

Results

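Testes of males homozygous for aly[5] were compared with control testes across the whole transcriptome of Drosophila melanogaster, to describe which functions and gene families had lower or higher transcript levels without aly. The comparison took the 3 arrays labelled aly and the 3 labelled control out of the 9 arrays of the series, and covered 18769 probe sets, of which the brightest with a single gene symbol stood for each of 11981 genes. Control males were w; tinRNAi/+; bamGal4VP16/+, a genotype that carries an RNAi construct against tin and a Gal4 driver with the bam promoter, active in the early male germline, and the submitters describe their testes as normal. The aly males were aly[5] red[1] e[1], so that 2 marker mutations that the controls lack came with the aly allele. Control flies were raised at 29°C and aly flies at 27°C. Another group of 3 arrays, Nxt1[z2-0488]/Nxt1[DG05102] testes at 25°C, lacks an mRNA export factor. Its values are given only where aly is set against another testis that stops at the same stage, but its arrays also entered the estimate of spread behind each test. All testes were dissected by hand from newly eclosed adults, and the submitters state that accessory glands and ejaculatory ducts were removed.

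The gene aly encodes a subunit of tMAC, the testis meiotic arrest complex, a testis form of the dREAM (Myb-MuvB) chromatin complex that is needed in primary spermatocytes to switch on genes for the meiotic divisions and for building the sperm. Spermatocytes grow and transcribe for days before meiosis, and most messages for the sperm tail, the compacted sperm nucleus and the reshaped sperm mitochondria are made then and stored. In aly mutants the germ cells stop as mature primary spermatocytes, so that neither meiosis nor spermatids are seen. Whole testes were measured: fewer cells of a type and less RNA per cell cannot be told apart, and the same holds for genotype and culture temperature.

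Signals are the authors' RMA values in arbitrary units, and differences are means of log2 signals, aly minus control. A gene is called lower or higher when limma's adjusted p was under 0.05 over all probe sets. Whether arrays of 1 genotype came from separate cultures is not in the labels, so the tests set differences against array-to-array spread that may be technical, and precision is limited by having 3 arrays a genotype. RMA makes the distribution of signals alike on every array. The median of all genes lay 0.31 higher in aly, and cytoplasmic ribosomal protein probe sets as a group lay 1.22 higher. Setting that group to no difference turns every difference below 1.22 into a fall, so that 25.0% of genes were lower and 49.8% higher as deposited, and 68.5% lower and 17.4% higher with ribosomal centring. A rise is therefore read here against 1.22, and falls of many fold do not depend on this choice. The groups did not overlap for 76.6% of genes, so that lack of overlap alone marks nothing out.

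The signal of aly was 106, 93.4 and 98 in the control arrays and 52.8, 50.8 and 57.5 in the aly arrays. All aly arrays lay below all control arrays, a difference of -0.89 (standard error 0.08, adjusted p = 5.10e-06), and the control signals were near the median of their arrays. The signal of e, the other marked gene measured by its own probe set, did not pass (0.15, adjusted p = 0.509). The other 8 measured tMAC genes were higher, all with arrays that did not overlap. Among them comr, which encodes a subunit particular to the testis complex, rose from 417, 333 and 425 in control to 2094, 2243 and 2323 in aly testes. The gene tomb, the testis counterpart of the MuvB DNA-binding subunit mip120, rose by 2.62 (standard error 0.10). The 4 measured testis TAFs, spermatocyte forms of general TFIID subunits, were all higher as well, from 0.76 for mia to 2.57 for nht. With ribosomal centring mip40 (-0.30), a MuvB core subunit, and mia (-0.46) turned lower, while 6 of the 9 tMAC genes and 3 of the 4 testis TAFs were still higher. Markers of primary spermatocytes were present in aly testes, where can, a testis TAF, read 4799, 3430 and 4755 and CG3927 read 10575, 11687 and 10738.

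Falls were concentrated among the brightest genes of the normal testis. The probe sets were put into 10 equal bins of control level, bin 1 the dimmest. Of the 1877 probe sets in bin 10 1314 were lower and 39.6% were 16 fold or more lower, against 19.1% and 2.45% in bin 8. In bins 6 to 8 57.3% to 69.0% of probe sets were higher. In bin 1 0.852% were lower, where a fall of this size has no room because signals end near 13. In all, 981 genes fell 16 fold or more (8.19%). In control testes these genes had a median signal of 4790, in aly testes one of 81.0, and for 86.4% of them the mean aly signal was under 200. In the other direction 25 genes rose 16 fold or more, and at 2 fold or more 2055 genes fell and 3458 rose. Of the 1239 genes with a control signal of 4096 or more, 988 fell and 197 rose.

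**Figure D1:**
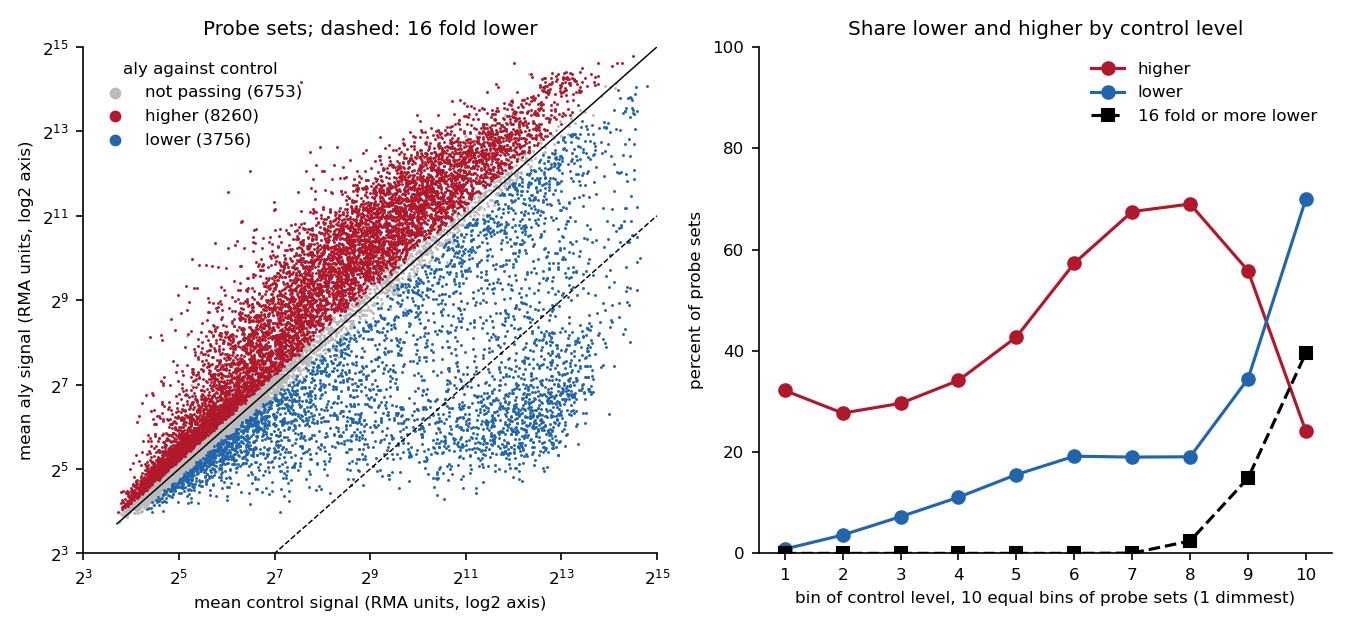
Left, mean aly against mean control signal of each probe set on log2 axes, with the line of no difference and a dashed line at 16 fold lower; right, the percent of probe sets lower, higher and 16 fold or more lower in each of 10 bins of control level. The 3756 lower probe sets hold a separate cloud of bright control signals with dim aly signals, and 1314 of the 1877 probe sets in the brightest bin were lower.

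Genes known only by a number made up a large part of the strong falls. Of the 981 genes that fell 16 fold or more 74.3% carried a CG or CR number in place of a name, against 43.6% of all genes and 35.9% of those that rose. The named ones among the largest falls serve quite different ends. The gene with the largest fall, w-cup, read 16293, 16107 and 16368 in control and 96.9, 40.7 and 98.6 in aly testes. Tim17a1, a testis form of an inner membrane translocase subunit, read 4699, 4708 and 4556 in control and 22.9, 30.7 and 24.8 in aly testes. Both were among the brightest signals in control testes, and no aly array read above 100 for either. The others of the 15 largest named falls were Slc25A46b and Mics1, homologs of mitochondrial membrane proteins, t-cup, Tengl3, Fpgs2, a folylpolyglutamate synthase, Pgm2b, a phosphoglucomutase, COX6AL, lobo, a component of the flagellar axoneme, the sperm tail genes Mst27D and djl, sinah, a ubiquitin ligase of the sina family, Adk1, an adenylate kinase, and Prosbeta5R1, which fell by 6.86 to 7.41 on the log2 scale.

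Genes for packing DNA into the sperm head fell without exception. All 12 measured sperm chromatin genes were lower (median -4.86), and 7 of them fell 16 fold or more. ProtB, a protamine, read 8334, 8359 and 8380 in control and 103, 133 and 108 in aly testes. Mst77F, a protamine-like protein of condensed sperm chromatin, read 24562, 24664 and 24940 in control and 1042, 988 and 845 in aly testes. Every aly array lay far below every control array for both. The related genes ProtA, Prtl99C and Tpl94D, a transition protein, had differences of -3.94, -3.52 and -3.22. The smallest falls were those of tHMG1 (-1.27) and tHMG2 (-0.72), HMG-box proteins of the transition stage.

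The sperm tail divided into genes that were lost and genes that stayed bright. Of 16 measured sperm tail genes 15 were lower, but the median was only -1.49 and 5 fell 16 fold or more. The don juan genes dj and djl, whose proteins lie along the sperm tail, had differences of -6.48 and -6.88, and hmw, another tail gene of the list, one of -6.69. By contrast the Mst84D genes and Mst98Ca, cysteine-rich structural proteins of the tail, stayed among the brightest signals. Mst84Dc read 22926, 22114 and 22635 in control and 14055, 14073 and 14387 in aly testes. Mst98Ca read 22542, 22065 and 22280 in control and 11821, 9173 and 10397 in aly testes. These groups did not overlap, but the differences were -0.67 (standard error 0.07) and -1.10 (standard error 0.10). Signals this bright can be compressed on arrays, and that was not tested. The neighbouring genes janB and ocn, paralogs of 1 small family, also parted, with falls of 4.30 and 0.63.

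The axoneme, the microtubule core of the tail, lost motors, linkers and the enzymes that modify its tubulin. Of 16 measured axonemal dynein chains 15 were lower (median -3.13), from CG10834 (-6.66) to CG3339 (-0.39), and only Dhc93AB (0.08, adjusted p = 0.375) did not pass. The tektins, filament proteins inside the doublet microtubules, fell by 6.55 for Tektin-A and 5.13 for Tektin-C. The tubulin ligases of the TTLL family, which add glutamate or glycine chains to tubulin, had a median of -0.93 and were split. TTLL6A read 9058, 8953 and 9418 in control and 115, 113 and 103 in aly testes. TTLL1B (-5.80), TTLL1A (-5.16) and TTLL3B (-4.49) fell, whereas TTLL12 (1.18), TTLL15 (1.46) and TTLL4A (1.74) were higher as deposited, and TTLL12 turned to -0.04 with ribosomal centring. Of the tubulins betaTub65B fell most, by 6.55, while betaTub85D, the testis beta-tubulin of the spindle and the tail, fell by 2.23 and kept a signal of 4507, 4014 and 4015. Lists of tektins, TTLL ligases, tubulins and the gamma-tubulin ring, like those marked below, were drawn up after values were seen.

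**Figure D2:**
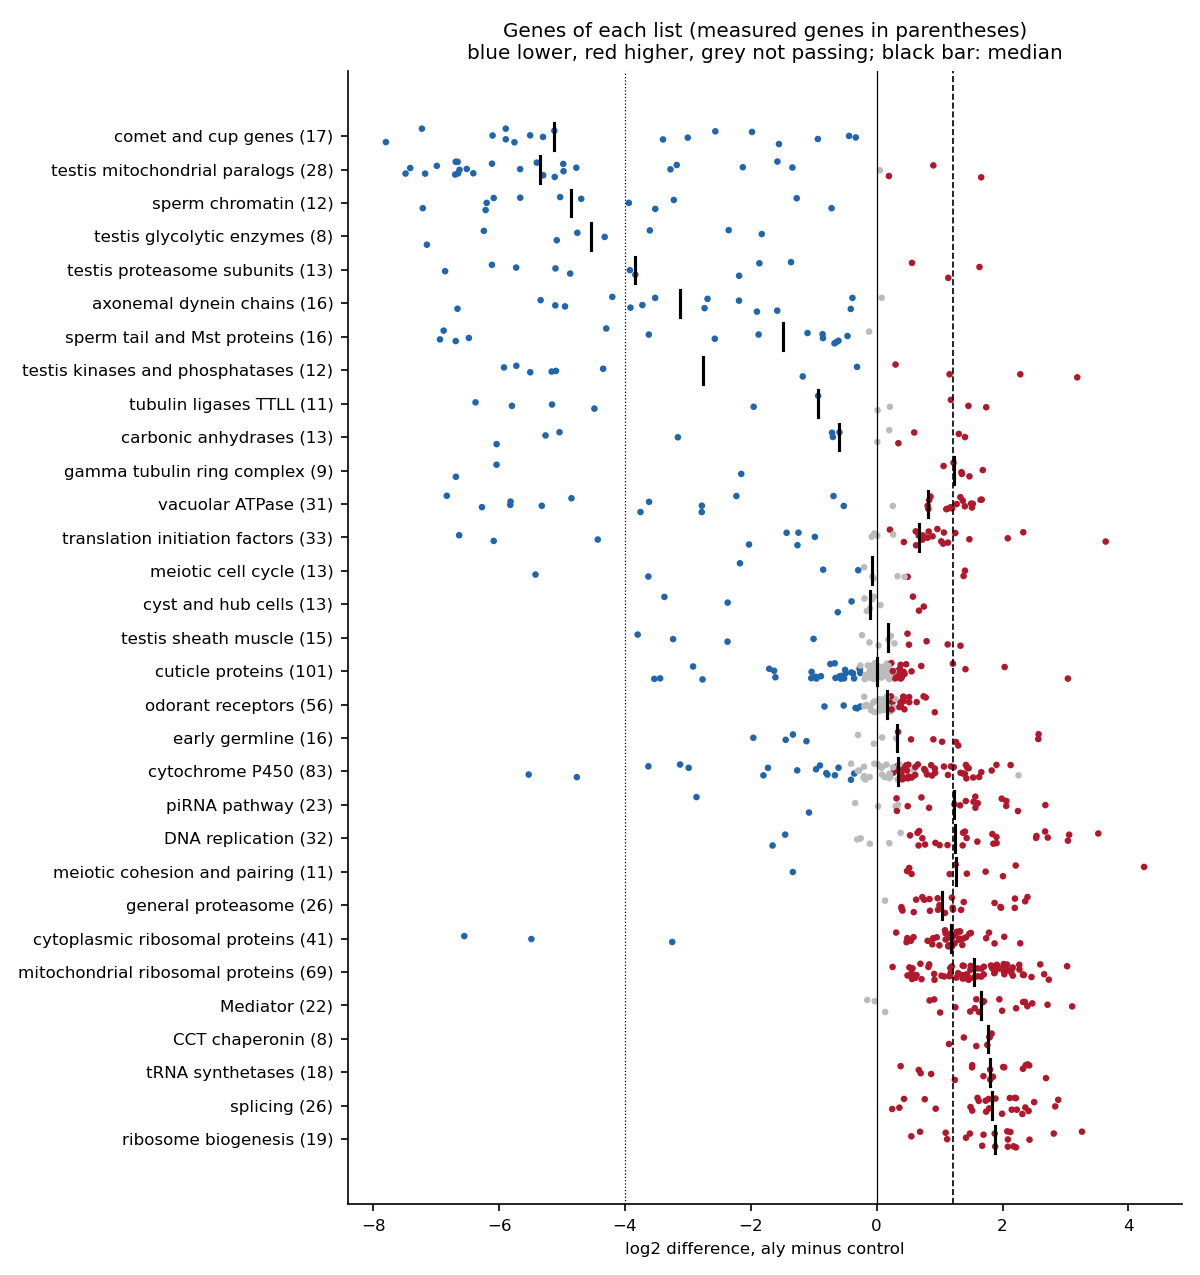
Log2 difference, aly minus control, of every measured gene in 31 lists, coloured by call, with the median of each list as a bar; the dashed line at 1.22 is the shift of ribosomal protein probe sets and the dotted line at -4 is 16 fold lower. Lists of sperm structures and testis paralogs have medians from -5.35 to -1.49, while the lists of gene expression machinery at the bottom lie to the right of 0.

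Many proteins of basic cell function exist in Drosophila as a general form and a testis form made by a duplicate gene, and the falls followed that division. Of 58 pairs with both members measured, 45 testis forms were lower, 29 of them 16 fold or more, 12 were higher and 1 did not pass, with a median of -4.07. Of the 48 general forms in these pairs 45 were higher, none was lower and 3 did not pass, with a median of 1.09 and a range from -0.20 to 2.41. In 43 pairs the testis form fell and the general form rose, but with ribosomal centring 25 of the 48 general forms lay below 0, so that their rise rests on the scale. The testis form lay below the general one in 51 of 58 pairs, a comparison that centring of the arrays cannot change. Probe sets of close duplicates could read some of each other's transcript, which was not tested. Testis forms that were higher as deposited were the testis TAFs with tomb, and among other proteins Rpt3R (1.14), Rpt4R (1.63) and Rpn12R (0.56) of the proteasome cap, ATPsynbetaL (1.66), Cyt-c1L (0.19), Tim17a2 (0.90) and the phosphatase Pp1-13C (0.30). Of these 7, Rpt3R, Rpn12R, Cyt-c1L, Tim17a2 and Pp1-13C fell below 0 with ribosomal centring. The small rise of Cyt-c1L did not pass without control replicate 1 (adjusted p = 0.103), control replicate 2 (0.0991), aly replicate 1 (0.0795), Nxt1 replicate 1 (0.0540) or Nxt1 replicate 2 (0.0532).

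**Figure D3:**
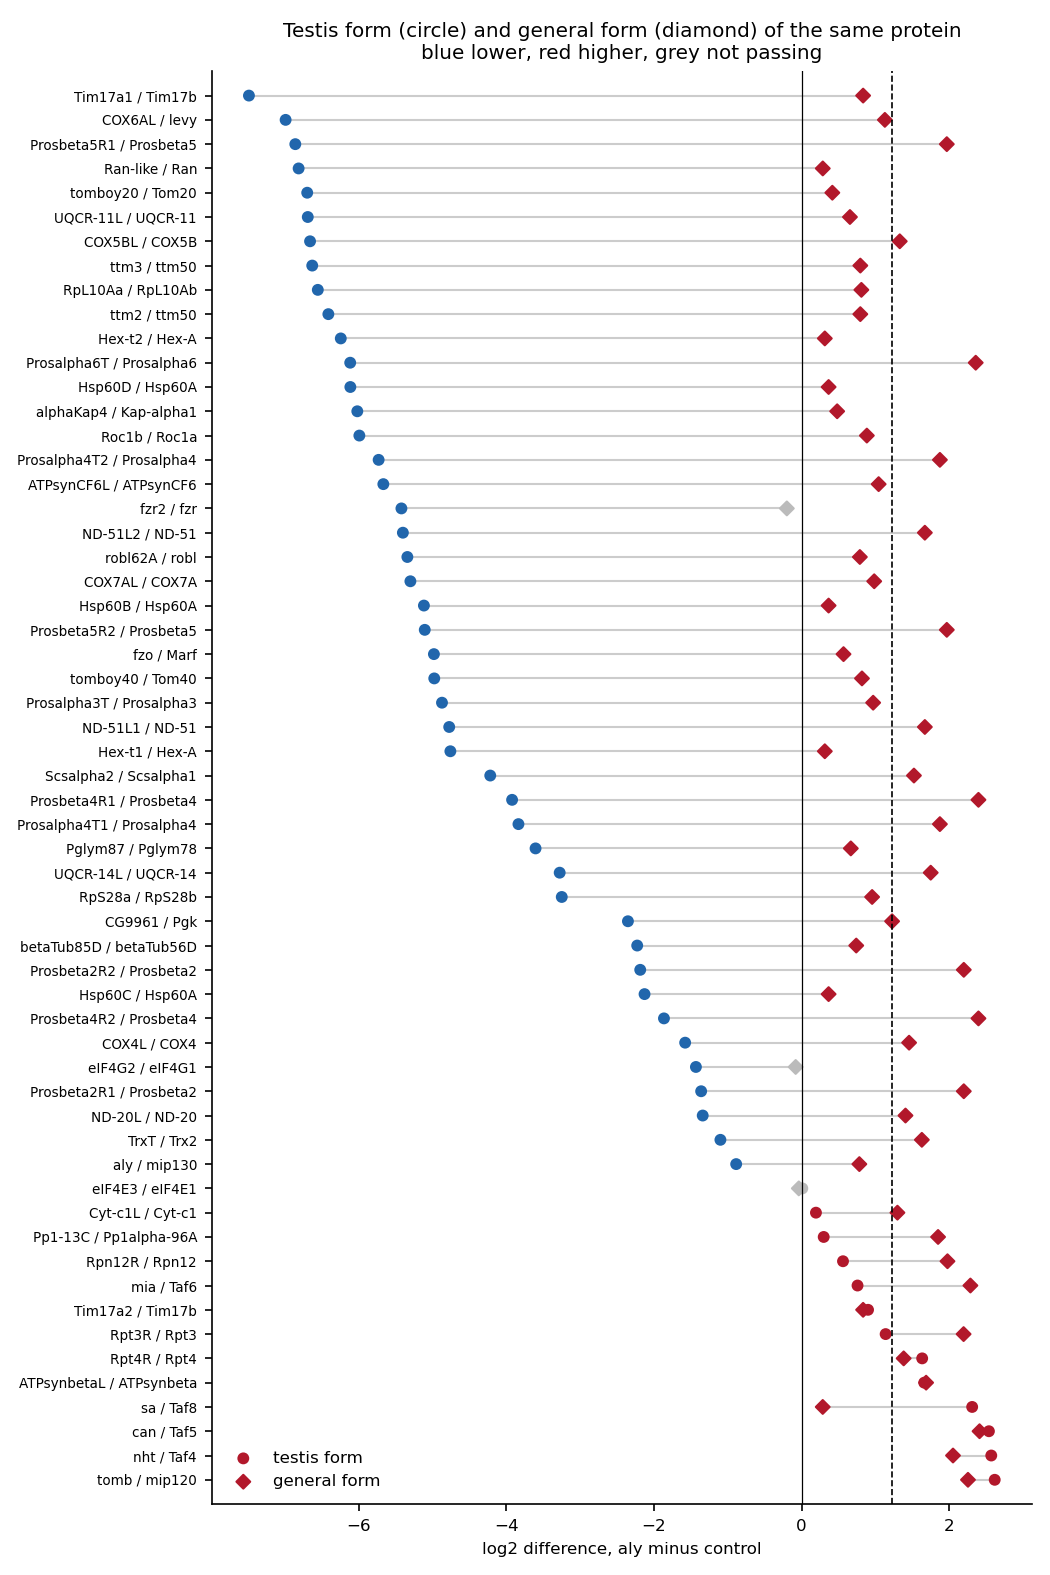
Log2 differences, aly minus control, of the testis form (circle) and the general form (diamond) of 58 pairs, in order of the testis form, with a dashed line at 1.22 for the ribosomal shift. In 51 pairs the testis form lies to the left, and the testis TAFs, tomb and a few others stand at the bottom with testis forms at or above 0.

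Sperm mitochondria, which fuse and then stretch along the tail, showed the division for import, fusion and respiration. Of 28 testis paralogs of mitochondrial proteins 24 were lower (median -5.35) and 19 fell 16 fold or more. tomboy20, a testis receptor of the outer membrane import channel, read 12412, 12563 and 11945 in control and 130, 112 and 115 in aly testes, while its general form Tom20 had a difference of 0.42 as deposited. COX6AL, a testis subunit of cytochrome c oxidase, read 6407, 6175 and 6519 in control and 48.8, 53 and 48.6 in aly testes. Its general form levy read 4194, 4761 and 4469 in control and 8799, 10008 and 10575 in aly testes. In both pairs the testis form dropped to at most 130 in all 3 aly arrays while the general form did not fall as deposited. The fusion GTPase fzo, needed to fuse spermatid mitochondria, fell by 4.98. Across the respiratory chain and ATP synthase 17 of 66 measured subunits were lower, and 15 of these carry the L suffix of duplicate forms; the exceptions were ND-15 (-0.41) and ND-13A (-0.21). ND-13A did not pass without aly replicate 1 or 3 or without any 1 of the control arrays (adjusted p from 0.0572 to 0.0723). In energy supply outside mitochondria all 8 measured testis glycolytic enzymes fell (median -4.54), with Hex-t2, a testis hexokinase, down by 6.24. Of 9 measured adenylate cyclases, which make the signalling molecule cAMP, 4 were lower, among them ACXC (-6.40) and ACXA (-6.29), 3 were higher and the median was -0.28 (7 lower and none higher with ribosomal centring).

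Several multi-subunit complexes held subunits of both kinds. The proteasome, which degrades tagged proteins, lost 10 of 13 measured testis subunits, while 25 of 26 general subunits were higher and none was lower (7 higher and 13 lower with ribosomal centring). Prosalpha6T, a testis subunit of the 20S core, read 8241, 8713 and 8039 in control and 137, 122 and 104 in aly testes. Its general form Prosalpha6 read 2099, 2219 and 1842 in control and 10006, 10572 and 10946 in aly testes. All aly arrays lay below the control arrays for the testis form and above them for the general form, with differences of -6.11 and 2.36 (standard errors 0.11 and 0.09). The vacuolar ATPase, a proton pump, had 13 of 31 measured subunits lower and 17 higher (18 lower and 4 higher with ribosomal centring). Vha68-3, a duplicate form of the catalytic subunit, read 11689, 11779 and 11087 in control and 93.7, 110 and 101 in aly testes. Vha36-2, VhaM9.7-d, Vha100-3, Vha14-2 and Vha16-2 fell, with differences of -6.27, -5.82, -5.82, -5.32 and -4.85. The subunits with the largest rises were Vha100-1 (1.67), VhaM9.7-c (1.65) and VhaAC39-1 (1.53). As deposited, each of the subunit groups Vha36, Vha100, Vha16 and VhaM9.7 held members that fell and members that rose.

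The same contrast between duplicate and general subunits was seen in microtubule organisation and protein turnover. Of the gamma-tubulin ring, which starts microtubules, all 3 testis forms fell and all 6 general subunits were higher as deposited. t-Grip84 read 6802, 6991 and 6502 in control and 109, 91.6 and 108 in aly testes. Its general counterpart Grip84 read 1142, 1113 and 1167 in control and 2844, 2524 and 2619 in aly testes. t-Grip91 and t-Grip128 fell by 6.69 and 2.15, and with ribosomal centring 1 of the 6 general subunits was still higher. In the COP9 signalosome, which regulates cullin ubiquitin ligases, 7 of 8 subunits were higher and CSN1a alone fell, by 6.03, while CSN1b, the other form of that subunit, rose by 1.67. Both lists were drawn up after values were seen. Among kinesins, microtubule motors, 6 of 16 were lower and 9 higher (9 lower and 4 higher with ribosomal centring): the neighbouring genes Klp59D and Klp59C, of the microtubule-depolymerising class, fell by 5.29 and 4.45, and ncd (2.17), a minus-end motor of the spindle, and Klp68D (2.27), an anterograde transport motor, rose. Roc1b, the testis RING subunit of cullin ligases, and klhl10, a substrate adaptor of a Cul3 ligase, fell by 5.99 and 6.04. The caspase Dronc and its activator Dark, by contrast, rose by 2.65 and 1.94.

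In translation, forms of the same factor diverged. Of 33 measured initiation factors 8 were lower and 21 higher (25 lower and 4 higher with ribosomal centring). eIF4E4, a cap-binding protein, read 11520, 11476 and 11820 in control and 130, 185 and 208 in aly testes. eIF4E6, another member of that family, read 519, 473 and 464 in control and 6218, 5782 and 6121 in aly testes. These 2 members of the cap-binding family thus moved in opposite directions with no overlap, while eIF4E1 (-0.04) and eIF4E3 (0.01) did not pass, and eIF4E7 and eIF4E5 fell by 2.03 and 1.24. In the scaffold eIF3, the duplicate forms eIF3d2 and eIF3g2 fell by 6.63 and 4.43, and the general forms eIF3d1 and eIF3g1 rose by 2.33 and 2.08. Among 41 measured cytoplasmic ribosomal proteins 3 fell, namely RpL10Aa (-6.55), RpS28-like (-5.49) and RpS28a (-3.25), each a duplicate form. In nuclear transport Ran-like (-6.81) and the importin alphaKap4 (-6.02) were lower. Their general forms Ran (0.29) and Kap-alpha1 (0.48) were slightly higher as deposited, and fell below 0 with ribosomal centring (-0.93 and -0.74). Of 33 measured genes of the nuclear pore and transport 5 were lower and 25 higher (14 lower and 15 higher with ribosomal centring). Among those higher were the importin Kap-alpha3 (3.23) and the exportin Cse1 (2.46).

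Several families of enzymes and transporters held a few members that fell far. Among 83 cytochrome P450 genes, oxidases of small molecules, the median was 0.33, close to that of all genes. As deposited 16 were lower and 42 higher, and with ribosomal centring 61 were lower and 4 higher. Cyp312a1 (-5.53) and Cyp310a1 (-4.76) fell most. GstD3, a glutathione S-transferase, fell by 4.14, and 23 of 34 measured genes of its family were higher as deposited, but 3 higher and 18 lower with ribosomal centring. Of 13 measured carbonic anhydrases 7 were lower and 4 higher as deposited, and 11 were lower and none higher with ribosomal centring. CAH4 (-6.04), CAH15 (-5.26) and CAH13 (-5.04) fell most. Of 4 measured sut sugar transporters 2 were lower and none was higher. The gene sut4 read 6729, 6305 and 7315 in control and 62.9, 62.8 and 52.3 in aly testes. The carbonic anhydrase and sut lists were drawn up after values were seen. Among families read from the letters of a symbol alone, with at least 8 measured genes, the lowest medians were those of Mst (-1.10), TTLL (-0.93), alpha-Est (-0.86), Tim (-0.59) and CAH (-0.59). Of 81 such families 27 held a gene that fell 16 fold or more. All 27 also held a gene that was higher as deposited, but so did nearly every other family, with 49.8% of all genes higher. The pairing of falls and rises therefore does not mark these families out.

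Genes of the meiotic divisions fell in part. Of 13 measured genes of the meiotic cell cycle 5 were lower, 3 were higher and the median was -0.07 (11 lower and none higher with ribosomal centring). fzr2, a testis activator of the anaphase-promoting complex, read 4728, 4808 and 4678 in control and 114, 122 and 97.1 in aly testes. bol, a translation regulator needed to enter meiosis, read 10169, 9744 and 10412 in control and 995, 627 and 873 in aly testes. CycB, the mitotic cyclin, and twe, the meiotic Cdc25 phosphatase, fell by 2.17 and 0.85. All 3 aly arrays lay below the control arrays for these genes, and the fall of twe was the smallest of them. Genes for chromosome cohesion and pairing went the other way as deposited, with 10 of 11 higher. With ribosomal centring 5 were higher and 4 lower. c(2)M, a cohesin-related subunit of the synaptonemal complex, read 44.4, 42.7 and 55.2 in control and 1069, 742 and 907 in aly testes. Only mei-S332, the shugoshin that protects centromeric cohesion, fell as deposited, by 1.33.

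Genes of DNA replication, an activity of spermatogonia and of young spermatocytes before growth, were mostly higher as deposited but divided with ribosomal centring. Of 32 measured genes 25 were higher and 2 lower (median 1.25), and 12 were higher and 15 lower with ribosomal centring. Orc2, of the origin recognition complex, read 74.3, 88.2 and 72.6 in control and 960, 902 and 830 in aly testes. Mcm5, of the replicative helicase, and PolA1, of polymerase alpha, rose by 3.06 and 3.04. Mcm10 and Cdc45, which also act at the helicase, fell by 1.45 and 1.65. In the early germline 8 of 16 genes were higher and 4 lower (2 higher and 11 lower with ribosomal centring). These counts lay near the shares of all genes, 49.8% higher and 25.0% lower. With ribosomal centring those shares were 17.4% and 68.5%, so that the list as a whole did not stand out. bam, the differentiation factor whose promoter drives Gal4 in the controls, read 180, 138 and 176 in control and 890, 1092 and 939 in aly testes, and zpg, a germline gap junction protein, rose by 2.57. chinmo, a regulator of stem cell maintenance, and mei-P26 fell by 1.96 and 1.33. In the piRNA pathway, which silences transposons in the germline, 17 of 23 genes were higher and 2 lower (8 higher and 10 lower with ribosomal centring), led by the Tudor protein tej (2.68) and BoYb (2.25). papi and mino, mitochondrial members of that pathway, fell by 2.86 and 1.08.

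Rises beyond the ribosomal shift were common in several, but not all, lists of nuclear gene expression and protein synthesis. Of all genes 17.4% were higher under each of the 3 scalings used. In ribosome biogenesis all 19 measured genes were higher (median 1.88) and 14 still were with ribosomal centring. For splicing the counts were 26 of 26 and 21 (median 1.84), for tRNA synthetases 18 of 18 and 13 (median 1.80), and for mitochondrial ribosomal proteins 69 of 69 and 41 (median 1.54). Lower with ribosomal centring were 2 genes of ribosome biogenesis, 5 of splicing, 4 tRNA synthetases and 15 mitochondrial ribosomal proteins. Initiation factors differed, with 4 of 33 higher and 25 lower under that centring. Of 41 cytoplasmic ribosomal proteins, whose probe sets define the centring, 8 were higher and 14 lower. l(3)72Dn, a ribosome biogenesis gene, read 220, 231 and 219 in control and 2097, 2063 and 2274 in aly testes. Prp8, the central spliceosome protein, read 453, 383 and 450 in control and 3475, 2686 and 3380 in aly testes. For both, the lowest aly array lay well above the highest control array. RIOK2, a kinase of small subunit maturation, beta-PheRS, a tRNA synthetase subunit, and mRpL17 rose by 2.81, 2.69 and 3.03. By symbol, the highest medians were those of Acp (2.69), an accessory gland family of which 5 of 15 genes passed and whose control arrays were uneven, then Prp (1.79), CCT (1.78), Alg (1.77) and mRpL (1.70). The median of the accessory gland list went from 2.66 to 1.06 without control replicate 1.

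Lists drawn up after values were seen gave similar counts. Of the Mediator, which links activators to RNA polymerase II, 19 of 22 measured subunits were higher, led by MED4 (3.11), and MED26, MED18 and MED6 did not pass. With ribosomal centring 15 were higher and 5 lower. All 22 measured RNA polymerase subunits were higher, led by Polr3G (2.63), and 9 were higher and 4 lower with ribosomal centring. The cytosolic chaperonin CCT had 8 of 8 genes higher, and 6 with ribosomal centring, all between 1.15 and 1.83. Of the Alg enzymes, which build the sugar chain of glycoproteins, 9 of 10 were higher and Alg12 (-0.47) was lower. With ribosomal centring 7 were higher and 2 lower. Heat shock genes, which belong to the lists first drawn up, were higher in 7 of 8 cases as deposited (median 1.14), led by Hsp68 (1.71). Culture temperature differed between the groups and cannot be told apart from genotype here. With ribosomal centring 3 of the 8 were higher and 3 lower. Hsc70-5, the mitochondrial Hsp70, fell by 0.91.

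Genes of other tissues were among the largest rises. Bomanins, short secreted peptides of the Toll immune response made in the fat body, were a list drawn up after values were seen: all 8 measured genes were higher (median 3.57). BomT2 read 158, 155 and 68.5 in control, 2279, 2697 and 2731 in aly and 215, 170 and 253 in Nxt1 testes. BomBc2 read 279, 295 and 213 in control, 3534, 4575 and 4815 in aly and 619, 424 and 726 in Nxt1 testes. The aly arrays stood apart from all other arrays, and the direct difference from Nxt1 was 3.61 (standard error 0.29, adjusted p = 4.14e-06) for BomT2. Of 14 antimicrobial and other immune genes, a list that holds BomS2 too, 11 were higher than in control as deposited, 4 were higher and 5 lower with ribosomal centring, and 11 were higher than in Nxt1 testes (36.7% over all genes). Drs, drosomycin, rose by 2.64. Larval serum protein Lsp2, a storage protein of the fat body, read 288, 232 and 147 in control, 3490, 3368 and 4389 in aly and 477, 196 and 425 in Nxt1 testes. Fbp1, the receptor for such proteins, read 79.4, 73.2 and 42.1 in control, 843, 1377 and 1406 in aly and 66.3, 68.7 and 80 in Nxt1 testes. The fat body list as a whole had 5 of 9 genes higher and 1 lower, apolpp (-2.06), and its summed signal was 4867 to 5151 in control, 6722 to 8722 in aly and 1214 to 2686 in Nxt1 arrays, while the yolk protein genes Yp1 (0.08) and Yp2 (0.13) did not pass. Their part in the Bomanin result was not tested.

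Blood cell and seminal fluid genes differed in how even the arrays were. The blood cell list had 8 of 10 genes higher, with summed signals of 2698 to 3677 in control and 6987 to 8794 in aly arrays. With ribosomal centring 2 of the 10 were higher and 4 lower. Hml, hemolectin of the blood cells, read 81, 91.3 and 93.7 in control and 436, 271 and 400 in aly testes. For the accessory gland, which makes seminal proteins, summed signals of 23 genes were 2105, 45601 and 59642 in the control arrays and 131713, 175666 and 79092 in the aly arrays. The control arrays thus spread over a wide range, with replicate 1 the lowest, and 7 of 23 genes passed as higher. Without control replicate 1 that number was 10, without control replicate 2 it was 13 and without control replicate 3 it was 17. Acp26Aa, a seminal prohormone, read 24.1, 837 and 1279 in control and 6985, 7622 and 3352 in aly testes. Dup99B, a duct peptide with the largest rise of all named genes, read 26.5, 37 and 2947 in control and 6980, 15095 and 9904 in aly testes. Anp, a peptide of the ejaculatory duct, read 82.8, 108 and 2971 in control and 4777, 15331 and 8827 in aly testes. For these 3 genes replicate 1 was the lowest and replicate 3 the highest of the control arrays. Carry-over of gland or duct tissue in dissection was not tested.

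**Figure D4:**
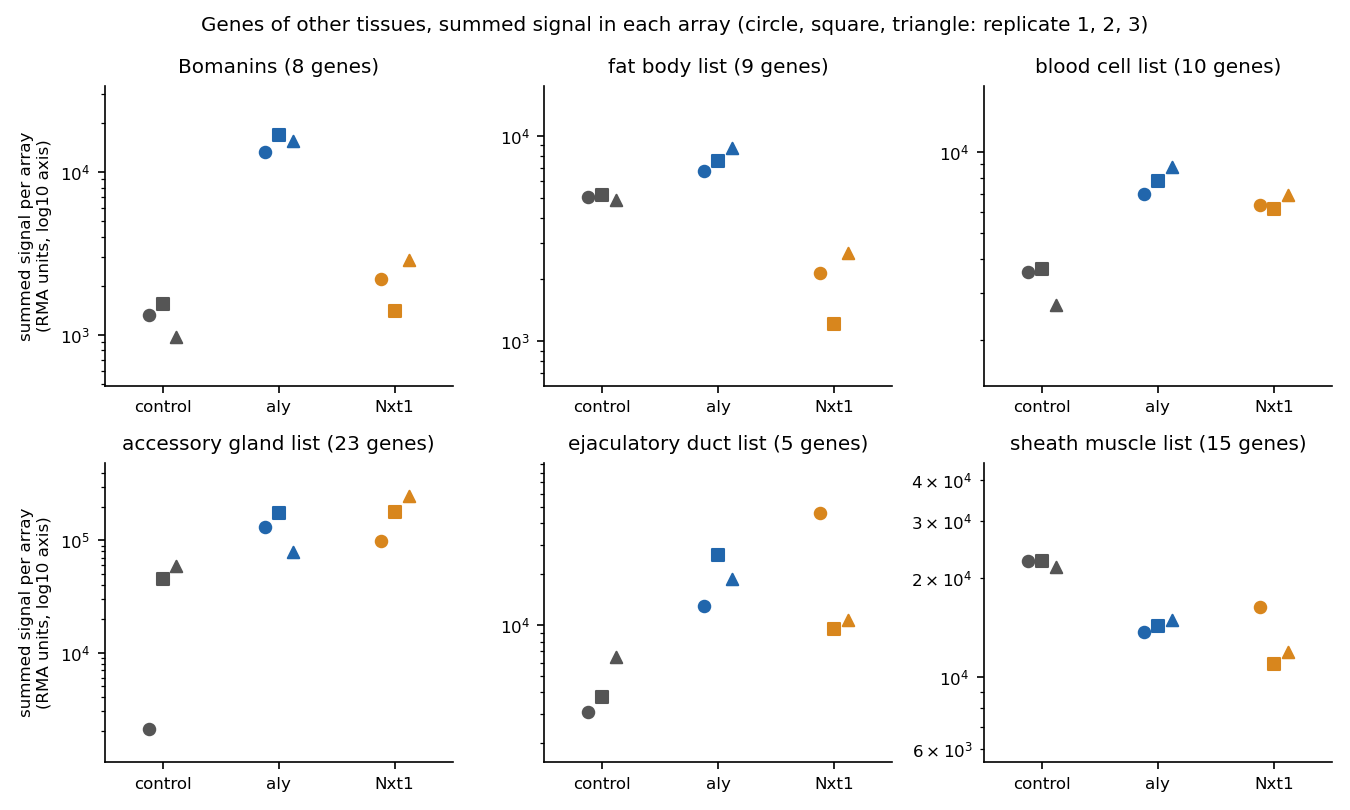
Summed signal in each array, on log10 axes, of the genes in 6 lists of other tissues, with the replicate given by the marker shape. The 3 aly arrays stand above all others for Bomanins, while accessory gland signals spread from 2105 to 59642 within the control arrays alone.

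Somatic cells of the testis itself gave no single direction. Of 13 genes of cyst cells and the hub, the somatic support cells and the stem cell niche, 4 were lower and 3 higher (13 lower with ribosomal centring). CadN, a cadherin, and so, a transcription factor, fell by 3.37 and 2.37, while the cyst cell factors tj (0.06), zfh1 (-0.05) and the receptor ptc (-0.19) did not pass. Of 15 genes of the muscular sheath 4 were lower and 5 higher (13 lower and none higher with ribosomal centring). The giant muscle proteins sls and Msp300 fell by 3.80 and 3.23 and the muscle actin Act87E by 2.37, with summed signals of the list at 21599 to 22557 in control and 13724 to 14940 in aly arrays. Mlc2 (-0.23) and Mlp60A (0.23), defining genes of muscle in the same list, did not pass.

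Families that testes have little known use for gave a measure of the background. Odorant receptors had 19 of 56 genes higher and 5 lower, gustatory receptors 14 of 56 and 7, ionotropic receptors 17 of 53 and 4, and cuticle proteins 20 of 101 and 26, all with medians between 0.01 and 0.17. Counts of weak changes such as these depended on single arrays: without control replicate 2 the odorant receptors had 11 genes higher, without aly replicate 3 they had 3 lower, and without control replicate 3 the cuticle proteins had 13 higher. With ribosomal centring at most 3 genes of each of these families were higher. Shares higher as deposited lay below the 49.8% over all genes. Exceptions stood out by size: Cpr76Bc, a cuticle protein, rose by 3.04, and Obp99b and Obp99c, odorant-binding proteins, rose by 4.22 and 3.70. Obp56d of that family fell by 3.40. Other named genes among the 15 largest rises were Idua, a lysosomal enzyme, Gfat1, the entry enzyme of the hexosamine pathway, Nos, nitric oxide synthase, Spn77Bc, a serpin, Obp51a, BomT3 and an 18S rRNA pseudogene. The Gfat1 probe set with this rise read 39.7, 50.7 and 38.1 in control, 1362, 453 and 945 in aly and 55, 54.3 and 54.6 in Nxt1 testes, a direct difference of 3.94 from Nxt1 (standard error 0.32, adjusted p = 4.37e-06). The brightest Gfat1 probe set rose less, by 1.69, and had a direct difference of 1.02 from Nxt1 (standard error 0.16, adjusted p = 3.85e-04).

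Some genes had 1 probe set that fell and another that rose. Of 1094 genes with several probe sets 13 had probe sets past 2 fold in both directions. A probe set of COX7C, a cytochrome c oxidase subunit, read 6729, 7235 and 7050 in control and 253, 321 and 258 in aly testes. The brightest COX7C probe set read 3089, 3393 and 3179 in control and 6663, 9072 and 7680 in aly testes. The gap between them was 5.93 on the log2 scale, the largest of the 13. For gpp, a histone methyltransferase, the lowest and highest probe sets gave -3.73 and 1.73, for RpS29 -3.33 and 1.09, for l(1)G0196, an inositol phosphate kinase, -2.34 and 1.11, and for lola, a transcription factor with many splice forms, -2.21 and 1.04. Probe sets can also read an overlapping or antisense gene, which was not tested.

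Genes that fell 16 fold or more often lay beside each other. Here a gene was counted by the lowest of its probe sets. Of 979 such genes placed in chromosome order 34.9% had a measured neighbour that also fell 16 fold or more, against 13.3% of the other genes and 15.1% of all 11795 genes placed. Leaving out neighbours whose symbols share their letters, as duplicates often do, gave 34.0%, against 13.2% of the other genes. Most strong falls were genes known only by a number, and duplicates among those cannot be seen from symbols. The part of duplicates was therefore not tested. Of the runs of adjacent falling genes 98 held 2 genes, 33 held 3, 3 held 4, 5 held 5 and 1 held 10. The run of 10 comprised Pif2, CG1137, CG2336, CG1138, CG31482, glob2, sowi, CG15177, sunz and CG31286, among them the globin glob2 and the comet genes sowi and sunz. sowi read 11993, 11876 and 11999 in control and 248, 241 and 181 in aly testes. glob2 read 5727, 5684 and 5731 in control and 121, 151 and 153 in aly testes. The differences of the 10 lay between -6.95 and -5.34, and none of the 4 measured genes on either side was lower. Within the run the genes parted in Nxt1 testes, where CG1137 read 5161, 4476 and 4157 and Pif2 read 111, 127 and 73.8, and the direct difference between aly and Nxt1 was -6.19 (adjusted p = 1.05e-08) for CG1137 and -0.61 (adjusted p = 0.063) for Pif2. A run of 5 held Klp59C, Gpdh2, CG30192, CG13544 and Klp59D. Whether neighbours share a promoter or an overlapping transcript was not analysed here.

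**Figure D5:**
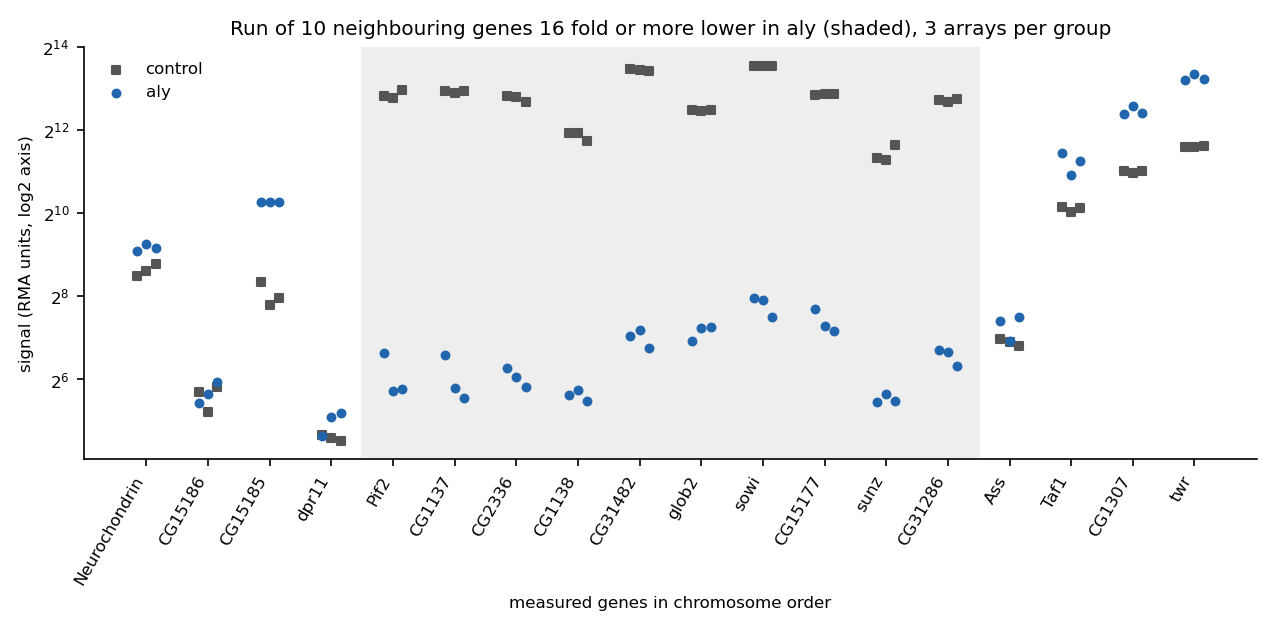
Signal in each control array (square) and aly array (circle), on a log2 axis, for the run of 10 neighbouring genes (shaded) and 4 measured genes on either side, in chromosome order. Mean signals of the 10 shaded genes are 2751 to 11956 in control and at most 223 in aly arrays, and none of the flanking genes is lower in aly.

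Part of the falls were deeper in aly than in Nxt1 testes. Over all genes 27.0% were lower in aly than in Nxt1 testes and 36.7% were higher. Of the testis mitochondrial paralogs 19 of 28 were lower in aly than in Nxt1 and 4 higher, and of the comet and cup genes 11 of 17 were lower and 5 higher. Mst27D read 71.9, 54.3 and 47.2 in aly and 702, 575 and 623 in Nxt1 testes, a direct difference of -3.47 (standard error 0.15, adjusted p = 3.40e-08). Pgm2b read 39.3, 37.8 and 27.2 in aly and 1515, 1184 and 917 in Nxt1 testes. Both genes kept a signal in Nxt1 testes that no aly array reached. Other falls ended at similarly dim signals in both mutants, where a difference in depth could hardly be measured. Of 7 measured Y-linked genes, all lower in aly than in control testes, none was lower in aly than in Nxt1 testes and 1 was higher. Their median signal in aly testes was only 31.4. COX6AL read 48.8, 53 and 48.6 in aly and 56.8, 53 and 44.8 in Nxt1 testes. Culture temperature differed between these groups as well, so that it cannot be told apart from genotype.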

How the data were processed

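The 6 arrays of aly and control testes, 3 each, belong to a series of 9. The authors scanned the arrays with GCOS and computed RMA signals (versions not given in the sources used here), and the values they deposited are intensities, not logarithms. RMA corrects background, makes the distributions of the arrays alike and summarises the probes of each probe set. Logarithms to base 2 were taken without an offset. Of 18952 probe sets 183 controls were left out, and 13646 of the remaining 18769 carried 1 gene symbol, 402 several and 4721 none. Gene IDs of 13543 were found in the RefSeq gene table of Release 6, used for current symbols and neighbour order only.

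The 9 arrays entered 1 limma fit (version 3.58.1, under R 4.3.3, by lmFit and default eBayes) that estimated a mean for each genotype, and p-values were adjusted by Benjamini and Hochberg over the 18769 probe sets. A gene is its brightest probe set. On simulated arrays, log2 changes of 0.5, 1, 2 and 5 were recovered in 48%, 84%, 98% and 100% of cases, with 2.94% false calls. There only a small part of the probe sets changed, evenly up and down and without a shift of scale. The measured arrays had far more changes, so these rates may not carry over to them. With 3 arrays against 3 the smallest permutation p is 0.1. Gene lists (48, and 13 added after values were seen), 71 pairs and the rule for named genes were chosen with earlier results of these data known, and no list was tested. Named genes are the alleles' genes, tMAC and testis TAF genes, up to 4 leading members of a list, its exceptions, pairs, the 15 largest named changes in each direction, and the families and genes with the largest gaps; other genes named as examples were picked with values in view. Listed genes that are absent from the results had no probe set with 1 symbol and were not analysed here, red, w and tin among them. As alternatives, arrays were centred on CG3927 or on ribosomal protein probe sets; others were the 6 arrays alone, no dim probe sets, an offset of 32, trend and robust eBayes, the replicate number as a block, a gene's median probe set, and leaving out each array. Figures were drawn with matplotlib 3.10.9, and tables were made with pandas 2.3.3 and numpy 2.4.6 under Python 3.11.15. Promoter sequences were not analysed here.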

Additional observations from a re-analysis of the deposited data

How the results depend on the processing

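Scaling changed the counts most. Centred on ribosomal protein probe sets, 14266 probe sets were lower and 2442 higher, and centred on CG3927, 13905 and 2681, against 3756 and 8260 as deposited; falls made up 85.4%, 83.8% and 31.3% of calls. Of the 48 lists first drawn up, 36 or 34 had more members lower than higher with these centrings in place of 15, and 10 or 11 more higher in place of 33. Pairs with the testis form lower and the general form higher numbered 18 and 19 in place of 43. The 1069 probe sets 16 fold or more lower became 1034 without dim probe sets and 977 with an offset of 32. Genes with probe sets in opposite directions fell from 13 to 7 in each of these last 2 settings. Shares of neighbours ran from 31.7% with the offset to 45.8% without dim probe sets. The share among other genes is not given for these settings, so the values cannot be read as more or less clustering. At 4 fold the share was 39.6%, against 20.6% of the other genes. Leaving out each array in turn gave 11135 to 12089 calls (12016), 3502 to 3755 lower, 7563 to 8334 higher, 1066 to 1072 of 16 fold or more lower, 13 to 15 lists mostly lower and 32 to 33 mostly higher, 41 to 44 pairs, 9 to 13 genes with opposite probe sets, and neighbour shares of 34.4% to 35.4%. Same-numbered arrays did not deviate together (correlations 0.03, 0.16 and -0.23), and the replicate number as a block gave 11858 calls, 3726 lower and 8132 higher. Of 2663 values of 167 named genes in the alternatives, 2607 kept their direction and side of the threshold. With ribosomal and CG3927 centring these reversed or passed the other way: Cyt-c1L (-1.02 and -0.94), Dhc93AB (-1.14 and -1.06), Mlp60A (-0.99 and -0.91), Pp1-13C (-0.92 and -0.84), Rpn12R (-0.66 and -0.58), Tim17a2 (-0.32 and -0.24), Tom20 (-0.80 and -0.72), e (-1.07 and -0.98), eIF4E3 (-1.21 and -1.13), levy (-0.091 and -0.0087), mia (-0.46 and -0.38), mip40 (-0.30 and -0.22) and tj (-1.16 and -1.08); with ribosomal centring alone CG3927 (-0.082), Rpt3R (-0.081) and TTLL12 (-0.041). The calls of Cyt-c1L and ND-13A were lost in 7 and 6 settings, those without single arrays among them, that of Acp26Aa with trend and robust eBayes, that of Grip84 with both centrings, and those of Rpt3R and TTLL12 with CG3927 centring. The cause of these changes, other than the centring itself, was not tested. Dim signals limit how far a fall can be measured. The search for promoter letters was not run, since no promoter sequence was used here.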
